A study of Mus musculus with 8 samples.

Results

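Viperin, encoded by Rsad2, its chromosomal neighbour Cmpk2 and 6 further genes whose enzymes make or remove nucleotides were examined in mouse embryonic fibroblasts (MEFs) before and after interferon-beta (IFN-beta). The 8 genes were picked by symbol, as Rsad2, Cmpk2, Cmpk1, Nt5c3, Samhd1, Ctps, Ctps2 and Upp1. All 8 were found among the 24015 gene symbols of the count tables, and all 8 passed the filter on low counts together with 12128 genes in all. The cells were wild-type MEFs of C57bl/6 background from E12.5 embryos, at passages 15 to 18. The untreated group held 2 RNA-seq libraries, and the other group held 2 libraries from cells given 100 units/mL of murine recombinant IFN-beta for 6 h. Since the labels do not tell whether replicates were separate cultures, p-values reflect the spread between the libraries alone, and that spread may be technical. The series also lists 4 chromatin samples from a mouse with HA-tagged histone H3.3, which were not analysed here.

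Type I interferons act through a cell surface receptor whose signal reaches interferon-stimulated response elements (ISREs) in gene promoters. Viperin is a radical S-adenosylmethionine enzyme that turns CTP into ddhCTP, a chain terminator for many viral RNA polymerases. CMPK2 phosphorylates CMP, UMP and their deoxy forms in mitochondria, CTP synthases make CTP from UTP, and SAMHD1 breaks down deoxynucleotide triphosphates and thereby limits reverse transcription.

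The start sites of Rsad2 and Cmpk2 face away from each other on chromosome 12, with 12763 bases between them in the RefSeq annotation of GRCm38.p6. Promoter sequences from RefSeq were found for all 8 genes, in 13 windows of 250 bases before an annotated start site. Both strands were searched for the ISRE core GAAANNGAAA and for TTCNNNGAA, the core of the gamma-activated site, another element of interferon-responsive promoters. The windows of the divergent pair Rsad2 and Cmpk2 are shown because these genes had the largest changes of the 8. The window of Cmpk1 is shown because Cmpk1 encodes the other UMP-CMP kinase and was not called. Each is written 5′ to 3′ on the strand of its gene, with matches to the ISRE core in capitals, at chr12:26456453-26456702 (minus strand), chr12:26468965-26469214 (plus strand) and chr4:114987229-114987478 (minus strand) of GRCm38.p6.
Rsad2: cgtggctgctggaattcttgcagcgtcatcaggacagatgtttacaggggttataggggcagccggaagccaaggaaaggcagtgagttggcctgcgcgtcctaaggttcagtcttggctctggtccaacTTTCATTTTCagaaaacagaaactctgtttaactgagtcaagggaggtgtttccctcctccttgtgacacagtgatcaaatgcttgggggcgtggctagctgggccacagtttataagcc
Cmpk2: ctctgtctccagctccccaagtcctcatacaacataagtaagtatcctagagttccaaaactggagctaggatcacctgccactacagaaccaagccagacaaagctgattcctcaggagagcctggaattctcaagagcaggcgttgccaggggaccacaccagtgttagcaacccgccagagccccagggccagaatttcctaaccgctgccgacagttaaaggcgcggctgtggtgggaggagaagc
Cmpk1: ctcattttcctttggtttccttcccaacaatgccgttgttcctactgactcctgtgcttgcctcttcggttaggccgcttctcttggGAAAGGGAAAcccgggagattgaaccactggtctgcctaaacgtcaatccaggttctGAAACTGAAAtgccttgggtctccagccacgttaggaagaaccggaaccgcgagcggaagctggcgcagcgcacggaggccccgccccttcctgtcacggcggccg
The Rsad2 window held 1 match to the ISRE core, read as TTTCATTTTC on the gene's strand, from 120 to 111 bases before the start site. The Cmpk2 window held no match to either core. The Cmpk1 window held 2 matches, GAAAGGGAAA from 163 to 154 and GAAACTGAAA from 106 to 97 bases before the start. Samhd1 had 1 match to the gamma-activated core, TTCGGAGAA, from 235 to 227 bases before its start, and no ISRE core. The windows of Nt5c3, Ctps, Ctps2 and Upp1 held neither. None of these matches overlapped another. Over all 32851 windows of this length, 2.98% held the ISRE core and 7.02% the gamma-activated core. A match is only a match of letters, and a missing match says only that the letters are not in that window.

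IFN-beta raised 3 of the 8 genes, Rsad2, Cmpk2 and Samhd1, and lowered none at a Benjamini-Hochberg adjusted p below 0.05 in edgeR's quasi-likelihood test. Over all tested genes 4.73% were called higher and 0.495% lower. No member was lower at an unadjusted p under 0.05 either, and DESeq2 and limma-voom also called 0 members lower. Levels below are read counts scaled to a common library size (CPM, with TMM), and they are not divided by gene length, so that levels of different genes are not compared. The libraries held 18528685 and 24817342 gene counts without treatment and 18901845 and 20714161 with IFN-beta, and 3 counts corresponded to between 0.114 and 0.168 CPM. Fibroblast markers such as Col1a2 and Vim were present, with all 10 of that list tested and 0 called. Their summed level was 4742 to 5241 CPM untreated and 6072 to 6435 CPM treated. Of these 10, 7 had a log2 fold change above 0, among them Col1a2 (0.30) and Vim (0.31). The 3 below 0 were Pdgfra (-0.62), Lum (-0.54) and Dcn (-0.30). The 10 macrophage and leukocyte markers summed to 18.4 to 24.1 CPM untreated and 16.7 to 21.9 CPM treated. Cd3e was at 0 in every library, but 5 of the 10 passed the count filter, with 0 called. Cd14 was at 7.48 and 8.68 CPM untreated and 7.51 and 8.97 CPM treated. Csf1r was at 5.146 and 5.195 CPM untreated and 6.837 and 4.384 CPM treated. Lyz2 differed between replicates, at 8.52 and 2.54 CPM untreated and 3.81 and 1.36 CPM treated. The 5 endothelial markers summed to 0.936 to 1.06 CPM untreated and 2.02 to 3.14 CPM treated, with Emcn at 0 and Cdh5 called higher, and the 5 epithelial markers stayed at or under 1.02 CPM. The part of such cells in the results was not tested, and fewer cells of a type and less RNA per cell cannot be told apart in bulk RNA. Rn45s, Lars2 and Mir6236 took 5.94% and 7.52% of gene counts untreated and 13.02% and 14.5% treated. Without these 3 genes, the log2 fold changes were 12.04 for Rsad2, 8.98 for Cmpk2 and 1.90 for Samhd1.

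Rsad2 was close to silent in untreated cells. It had 2 and 0 counts in the untreated libraries and 10090 and 12100 counts in the IFN-beta libraries, which is 0.104 and 0 CPM against 565.5 and 609.7 CPM. A count of 0 in the second untreated library allows a level of up to 0.114 CPM. Both treated libraries were far above both untreated ones, and the treated pair lay close together at 588 ± 31.2 CPM (SD, n = 2). The ratio of pooled, depth-scaled counts was 13430, with a 95% exact interval of 3717 to 110900 that covers counting error only. The fitted log2 fold change was 12.03 ± 0.29 (SE, edgeR adjusted p = 4.76e-09), the largest of all 12128 tested genes in this fit. It was also the largest in 11 of 14 alternatives, but Mx1 was larger by DESeq2 (14.67) and with a prior count of 0.5 (13.11), and I830012O16Rik with untreated replicate 2 left out (11.89). The value of Rsad2 depends on the prior count and on which untreated library is kept, and its SE does not cover the choice of prior count. It was 13.08 with a prior count of 0.5, 13.72 by DESeq2, 13.53 by limma-voom, 12.63 with untreated replicate 1 left out and 11.46 with untreated replicate 2 left out.

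Cmpk2 rose from a low but detected level. Its counts were 15 and 4 untreated and 4601 and 5229 after IFN-beta, or 0.780 and 0.152 CPM against 257.9 and 263.5 CPM. The treated libraries were nearly equal, at 261 ± 3.96 CPM, whereas the untreated ones were spread widely, at 0.466 ± 0.444 CPM (SD, n = 2). The ratio of pooled counts was 626 (95% exact interval 401 to 1040). The fitted log2 fold change of 8.97 ± 0.32 (SE, edgeR adjusted p = 3.95e-08) ranked 17 among the tested genes. Leaving out untreated replicate 1 gave 10.07 and leaving out untreated replicate 2 gave 8.20.

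Samhd1, whose product hydrolyses deoxynucleotide triphosphates, was well expressed before treatment and rose 3.70-fold. It stood at 50.7 and 45.9 CPM untreated and at 186 and 171 CPM treated, from 975 and 1210 counts and from 3322 and 3399 counts. Each group was tight beside the gap between them, with 48.3 ± 3.39 CPM untreated and 179 ± 10.55 CPM treated (SD, n = 2). The log2 fold change was 1.89 ± 0.13 (SE, 95% interval 1.59 to 2.18, edgeR adjusted p = 6.45e-06), which ranked 249. Over the 14 alternatives it ran from 1.74 to 1.98 and passed in each.

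**Figure D1:**
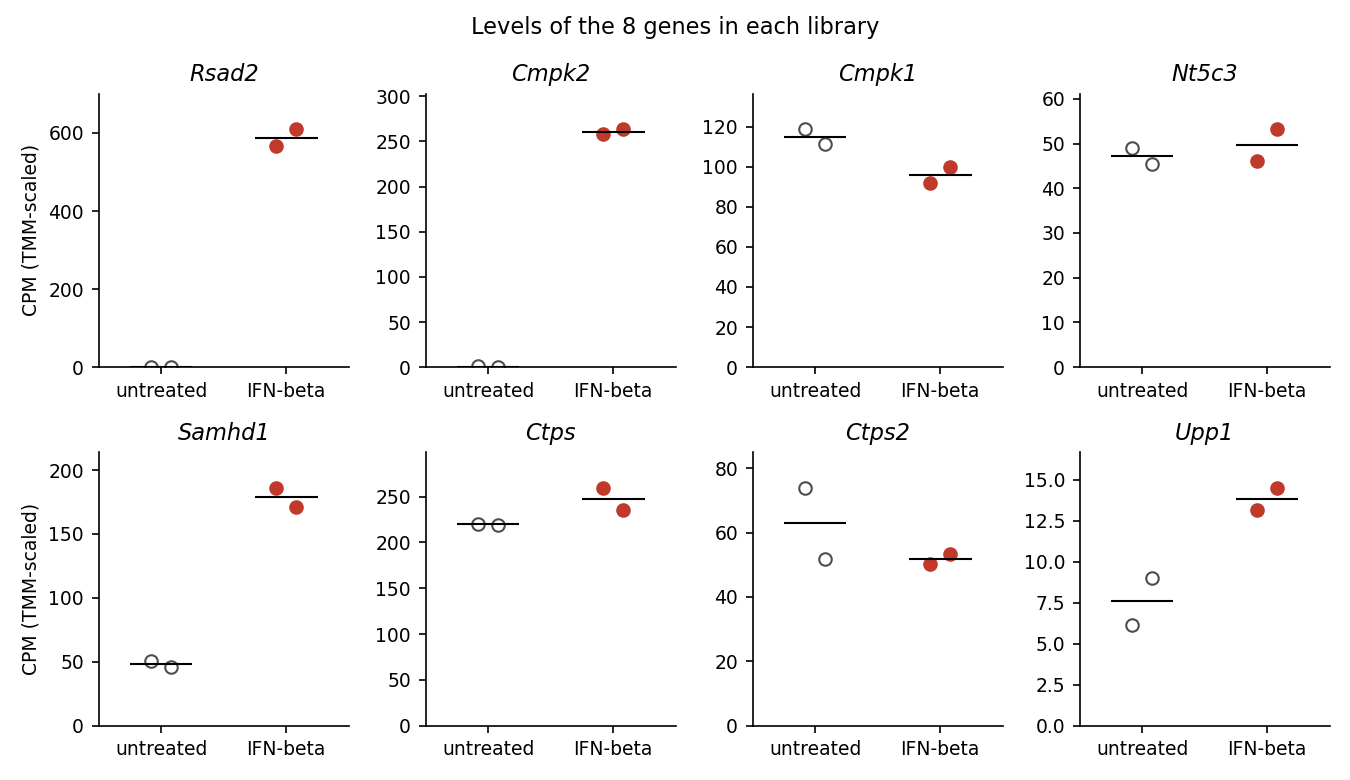
Level of each of the 8 genes in the 4 libraries, in TMM-scaled CPM on an axis that starts at 0 and differs between panels. Open points are untreated and filled points IFN-beta libraries, and lines are group means (n = 2). Rsad2, Cmpk2 and Samhd1 stand apart between groups by far more than the replicates differ, and the groups overlap for Nt5c3 and Ctps2.

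Upp1, uridine phosphorylase, splits uridine into uracil and ribose phosphate, and it lay just outside the threshold. Its levels were 6.13 and 9.025 CPM untreated (118 and 238 counts) and 13.2 and 14.5 CPM treated (235 and 288 counts). Both treated libraries were above both untreated ones, but the untreated pair was spread, at 7.58 ± 2.045 CPM against 13.8 ± 0.948 CPM (SD, n = 2). The log2 fold change was 0.85 ± 0.21 (SE, 95% interval 0.37 to 1.33), with an unadjusted p of 0.00268 and an edgeR adjusted p of 0.0509. It passed in 8 of 14 alternatives, with log2 values of 0.64 to 1.16 and adjusted p-values from 2.62e-07 to 0.162. Among these were DESeq2 (adjusted p = 0.0205) and limma-voom (0.0472). Its upper value, 1.16, came from the fit that left out untreated replicate 2, and its lower value, 0.64, from the fit that left out untreated replicate 1. Without untreated replicate 2, edgeR called 15.3% of all tested genes higher and 14% lower, so that a pass in that fit is common.

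The remaining 4 members, which supply or remove pyrimidine nucleotides, gave no call. Cmpk1, the UMP-CMP kinase outside mitochondria, was at 119 and 111 CPM untreated and 92.0 and 99.9 CPM treated. Both treated libraries were thus below both untreated ones, but the log2 fold change of -0.26 ± 0.12 (SE, 95% interval -0.54 to 0.02) did not pass (edgeR adjusted p = 0.309). Groups that do not overlap are common here, with 26.8% of tested genes lower and 23.9% higher in both treated libraries.

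Within each library, the count of Cmpk2 over that of Cmpk1 needs no scaling between libraries. It was 0.00657 and 0.00137 untreated and 2.80 and 2.64 treated. Its mean of 2.72 ± 0.116 after IFN-beta was 686 times the untreated mean of 0.00397 ± 0.00368 (SD, n = 2). The ratio is not per length, so that only its change is read, and 2 libraries against 2 cannot go below p = 0.333 in an exact permutation test. For Rsad2 over Cmpk2 the ratio was 0.133 and 0 untreated and 2.19 and 2.31 treated, with the treated libraries close and the untreated values resting on a few reads. Samhd1 over Cmpk1 went from 0.427 and 0.413 to 2.02 and 1.72.

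Ctps and Ctps2 encode the CTP synthases, which make the substrate of viperin. Ctps was at 220.5 and 219.6 CPM untreated and 259.8 and 235.7 CPM treated. The treated libraries were higher than both untreated ones, by a log2 fold change of 0.17 ± 0.12 (SE, 95% interval -0.10 to 0.44, edgeR adjusted p = 0.499). Ctps2 was at 74.0 and 51.8 CPM untreated and 50.1 and 53.2 CPM treated, so that the groups overlapped and untreated replicate 1 alone was high. Its log2 fold change of -0.28 ± 0.17 (SE, 95% interval -0.67 to 0.11) did not pass (edgeR adjusted p = 0.428), and it rested on the untreated libraries. Without untreated replicate 2 it was -0.52 and passed (adjusted p = 0.000879), and without untreated replicate 1 it was 0.02 (adjusted p = 0.970), over a range of adjusted p from 0.000879 to 0.999 in the alternatives.

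Nt5c3, a cytosolic nucleotidase that removes the phosphate from CMP and UMP, was at 49.1 and 45.4 CPM untreated and 46.2 and 53.2 CPM treated. The groups overlapped, and the log2 fold change was 0.07 ± 0.14 (SE, 95% interval -0.24 to 0.38, edgeR adjusted p = 0.824), with a sign that turned under total library size scaling (-0.068). For Cmpk1, Ctps, Ctps2 and Nt5c3 the 95% intervals leave out changes beyond 0.67 on the log2 scale in either direction. In RefSeq, Nt5c3 overlaps Vmn1r4 and Ctps2 overlaps S100g, which had at most 1 count each in any library. Gm19107, which also overlaps Ctps2, was not used here, and the other 6 members overlap no gene there.

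**Figure D2:**
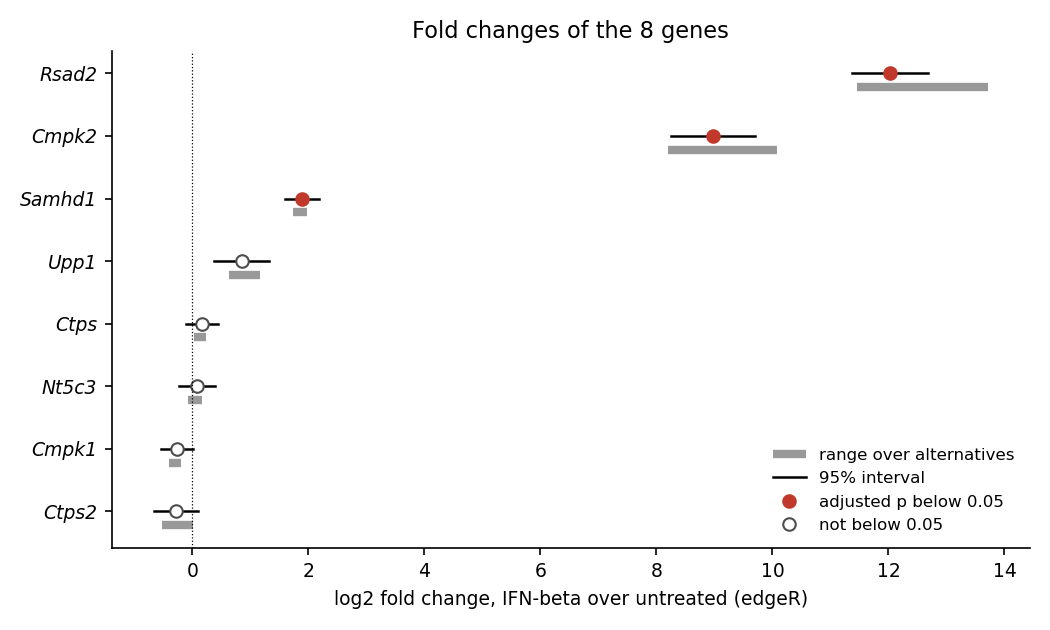
Log2 fold change of the 8 genes (points, filled where the adjusted p is below 0.05) with its 95% interval (thin line) and the range over 14 alternative analyses (grey bar). Rsad2 at 12.03, Cmpk2 at 8.97 and Samhd1 at 1.89 lie clear of 0, and Upp1 at 0.85 lies just outside the threshold. Values of Rsad2 and Cmpk2 depend on the prior count, a choice that their 95% intervals do not cover.

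In 8 lists of other nucleotide enzymes, transporters, mitochondrial DNA factors and iron-sulfur assembly proteins, 112 of 113 symbols were found and 101 had enough counts, of which 2 were called higher and 0 lower, against 4.73% and 0.495% of all genes. The median log2 fold change over the 101 genes was -0.04, beside -0.02 over all tested genes, and 13 of them had an unadjusted p under 0.05, where 18.2% of all tested genes did. Without untreated replicate 2 the counts were 14 higher and 15 lower, where 15.3% and 14% of all genes in that fit were called. DESeq2 called 3 higher and 1 lower, against 5.13% and 0.849% of all genes.

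Both called genes belong to purine breakdown. Pnp, purine nucleoside phosphorylase, which releases the base from inosine and guanosine, was at 158 and 113.5 CPM untreated and 556 and 603 CPM treated. The log2 fold change was 2.09 ± 0.17 (SE, 95% interval 1.71 to 2.47, edgeR adjusted p = 2.23e-05), with both treated libraries above both untreated ones. Its near-identical copy Pnp2 had 0 and 0 counts untreated and 3 and 5 treated, and reads that match both copies cannot be assigned to either, so that the level of Pnp is uncertain. Xdh, xanthine dehydrogenase, which forms uric acid, was at 24.0 and 13.9 CPM untreated and 83.0 and 70.5 CPM treated (log2 fold change 2.02 ± 0.23 SE, edgeR adjusted p = 0.000304). Both passed in each of 14 alternatives, with Pnp from 1.87 to 2.37 and Xdh from 1.67 (without untreated replicate 2) to 2.48 (without untreated replicate 1). Of the other 19 tested purine genes, which include the enzymes of purine synthesis, 0 were called. Adenosine kinase, Adk (-0.39, unadjusted p = 0.0342), and the synthesis enzyme gene Paics (-0.35, unadjusted p = 0.0487) had an unadjusted p under 0.05, and without untreated replicate 2 both were called lower while Pfas, Impdh1 and Ampd2 were called higher. The list as a whole had a median of 0.07.

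Pyrimidine synthesis and salvage gave 0 calls among 9 tested genes, with a median of 0.02 and a range of -0.15 to 0.30. Cad, which carries out the first steps of pyrimidine synthesis, was at 0.30 ± 0.19 (SE, edgeR adjusted p = 0.461), and Dctd, dCMP deaminase, at 0.11. Cad was at 0.65 without untreated replicate 2 and then passed (adjusted p = 2.51e-05, over a range up to 0.999). None of the 9 had an unadjusted p under 0.05. Among 14 nucleoside mono- and diphosphate kinases 0 were called (1 at an unadjusted p under 0.05), 12 were below 0 and the median was -0.25. Of all 12128 tested genes, 6386 were below 0. The summed level of these kinases was 1747 and 1561 CPM untreated and 1333 and 1499 CPM treated, so that replicates differed too. Whether they fell as a group was not tested. Nme1 (-0.29 ± 0.13 SE, edgeR adjusted p = 0.268) and Ak3 (-0.32 ± 0.14 SE, adjusted p = 0.279) had the lowest p-values of that list, and both passed without untreated replicate 2 (adjusted p = 0.0273 and 0.00513), as did Dtymk, Nme2, Nme6 and Nme7.

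Deoxynucleotide supply, the pathway opposed by SAMHD1, gave 0 calls among 12 genes (1 at an unadjusted p under 0.05) with a median of -0.08. The ribonucleotide reductase genes Rrm1 (-0.10), Rrm2 (0.11) and Rrm2b (0.17) were near 0. Tk1, thymidine kinase, was at -0.31 ± 0.14 and Tyms, thymidylate synthase, at -0.30 ± 0.14 (SE, edgeR adjusted p = 0.263 and 0.292), and both passed without untreated replicate 2 (adjusted p = 0.00484 and 0.00403). Nucleotide and nucleoside removal gave 0 calls among 17 tested genes (2 at an unadjusted p under 0.05) with a median of -0.04. Nt5e, the surface nucleotidase CD73, had few reads (49 and 56 untreated, 12 and 28 treated) and a log2 fold change of -1.07 ± 0.36 (SE, edgeR adjusted p = 0.143). It passed as lower in 3 of 14 alternatives, with values from -1.66 to -0.68 and adjusted p-values from 0.012 to 0.982. Nt5dc3 was at 0.71 ± 0.22 (SE, edgeR adjusted p = 0.118), from 33.2 and 57.8 CPM to 78.2 and 71.3 CPM. It passed as higher in 6 of 14 alternatives. Among these were DESeq2 (adjusted p = 0.0267), the fit without a count filter and the replicate block, and the rest were fits with a library left out. The log2 fold change of Nt5dc3 was 1.17 with untreated replicate 2 left out and 0.39 with untreated replicate 1 left out. Dpyd, Dpys and Upb1, which act in turn to break down pyrimidine bases, had 0 counts in all 4 libraries.

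Genes around the mitochondrial role of CMPK2 and the iron-sulfur cluster of viperin gave 0 calls in edgeR's test, with 3 mitochondrial DNA genes, 1 transporter and 1 assembly gene at an unadjusted p under 0.05. Of 11 genes for mitochondrial DNA maintenance, Tfb2m, a mitochondrial transcription factor, was nearest, at 51.6 and 51.3 CPM untreated and 37.3 and 33.6 CPM treated. Its log2 fold change was -0.54 ± 0.13 (SE, edgeR adjusted p = 0.0517), and it passed as lower in 6 of 14 alternatives, with adjusted p-values from 0.00067 to 0.437. Top1mt, the mitochondrial topoisomerase, was at 0.43 ± 0.17 (SE, adjusted p = 0.226). Of 8 tested transporters of nucleosides and nucleotides, Slc25a36, a mitochondrial pyrimidine nucleotide carrier, was at -0.37 and Slc25a4 at -0.21. All 9 cytosolic iron-sulfur assembly genes were tested, with values from -0.20 to 0.35 and a median of 0.05. Among them were Nubp2 (0.35 ± 0.15 SE, adjusted p = 0.256), Fam96a (-0.20) and Ciao1 (-0.13), whose product helps to insert the cluster of viperin.

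**Figure D3:**
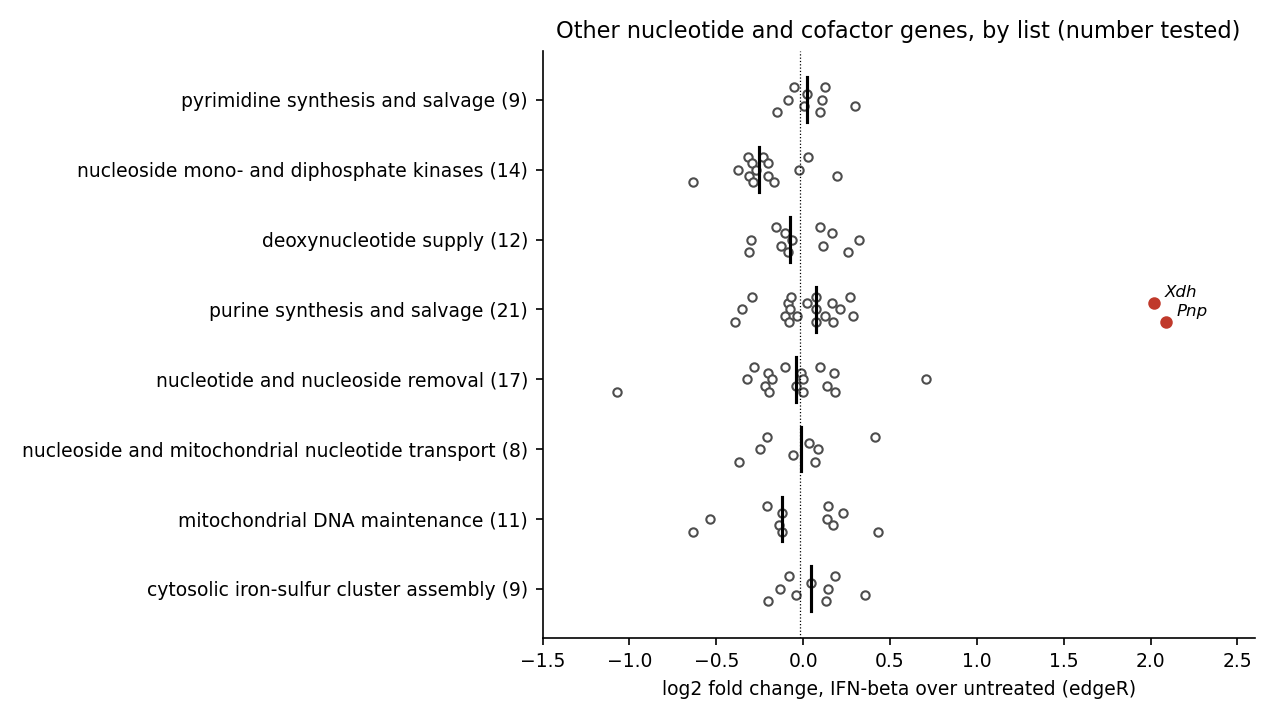
Log2 fold change of the 101 tested genes of 8 lists, 1 point a gene, with the number tested beside each list. Filled points have an adjusted p below 0.05, short lines are list medians and the dotted line is the median of all tested genes. Pnp and Xdh stand near 2, and all other points are open.

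Along chromosome 12, Rsad2 and Cmpk2 were called higher, and none of the 3 neighbours with enough counts to be tested was. Rnf144a, the nearest protein-coding gene on the Rsad2 side in RefSeq order, had 35 and 37 counts untreated and 30 and 29 treated (log2 fold change -0.02 ± 0.31 SE, edgeR adjusted p = 0.977). Gm17746, 4930480M12Rik and Mir6538 on that side, and Gm9866 on the Cmpk2 side, had 0 counts in every library, and Gm20187 had at most 2. Beyond them Sox11, a developmental transcription factor gene, went from 66.9 and 64.2 CPM to 45.8 and 43.4 CPM and was called lower (-0.55 ± 0.13 SE, edgeR adjusted p = 0.0346). That call was lost when either IFN-beta replicate was left out (-0.59 with adjusted p = 0.264 for replicate 1, and -0.51 with 0.328 for replicate 2), and adjusted p-values spanned 0.000151 to 0.328 in all alternatives. Dcdc2c, next to it, was at -0.34 (adjusted p = 0.375).

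**Figure D4:**
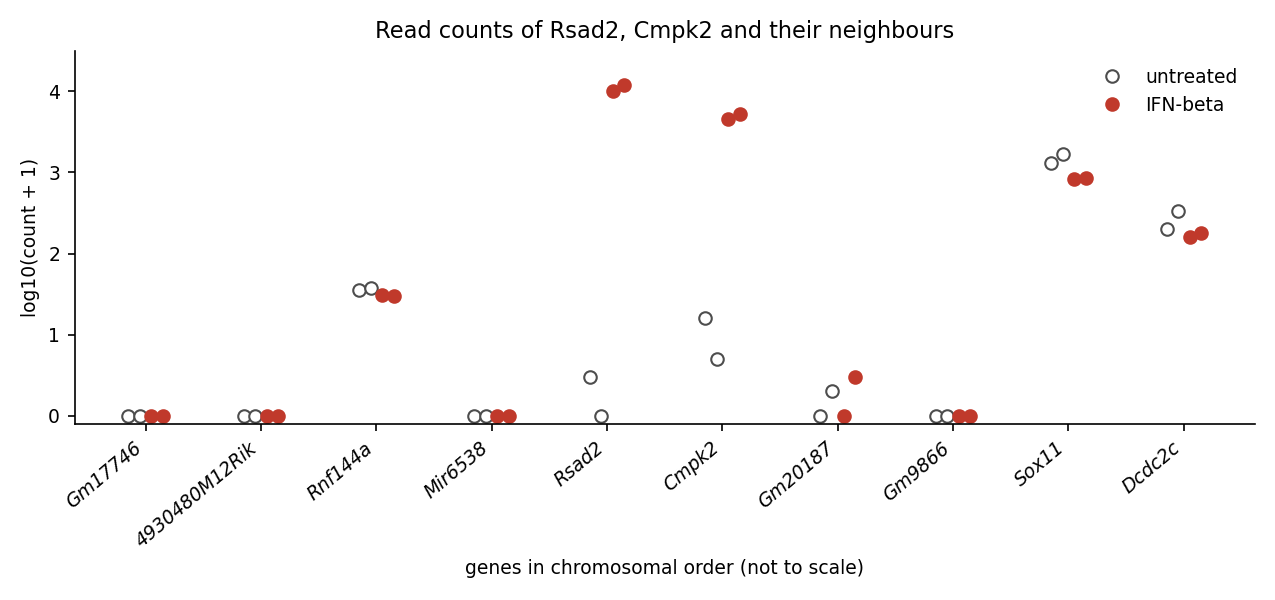
Read counts, as log10(count + 1) and not per length, of Rsad2, Cmpk2 and up to 4 counted genes on each side, in chromosomal order and not to scale. Open points are untreated and filled points IFN-beta libraries (n = 2 each). Only the 2 genes in the middle show treated points far above the untreated ones.

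The genes closest to Rsad2 and Cmpk2 in pattern were other interferon-induced genes. Closeness was the root mean square difference of log2 CPM over the 4 libraries after each gene was centred on its own mean, which mostly reads the size of the change between the groups. Nearest to Rsad2 were Iigp1 (0.42), an immunity-related GTPase, Mx1 (0.63), an antiviral dynamin-like GTPase, Ifi44 (0.69) and Cxcl10 (0.79), a chemokine. Cmpk2 stood 15th from Rsad2, at 1.49. Nearest to Cmpk2 were Gbp3 (0.29), a guanylate-binding protein, Oasl2 (0.34), Ifi205 (0.35) and Isg15 (0.38), a ubiquitin-like modifier. Rsad2 stood 46th from Cmpk2 among 12127 genes compared. The distances rest on untreated counts near 0, and their order depends on the prior count of 2. With a prior count of 0.5, an alternative chosen after seeing the data, Ifi44 (0.69), Mx1 (0.88), Iigp1 (1.01) and Tgtp2 (1.22) were nearest to Rsad2 and Isg15 (0.33), Gbp4 (0.38), Gbp3 (0.41) and Oasl2 (0.51) to Cmpk2. Cmpk2 then stood 16th from Rsad2, and Rsad2 62nd from Cmpk2. The divergent neighbours thus both rose, but each had other genes closer to it in the size of the change.

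**Figure D5:**
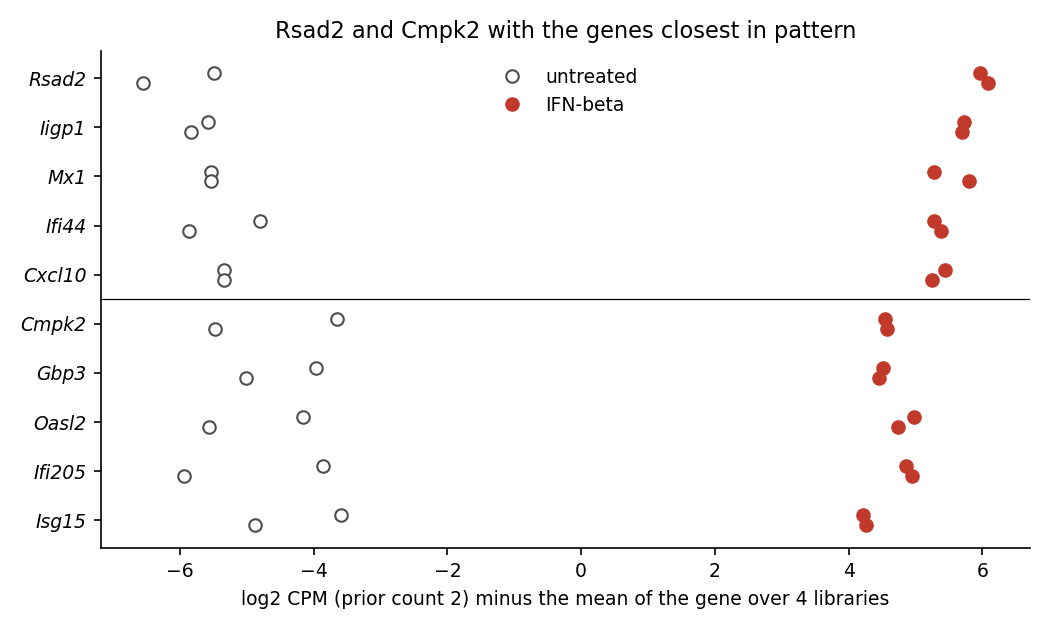
Log2 CPM (prior count 2) of Rsad2 and Cmpk2 and of the 4 genes closest to each, minus the mean of each gene over the 4 libraries. Open points are untreated and filled points IFN-beta libraries (n = 2 each). The treated points of Rsad2 lie near 6 and those of Cmpk2 near 4.5, and the untreated points spread more than the treated ones for both.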

How the data were processed

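Read counts per gene symbol were deposited by the authors as 1 table per RNA-seq library, not normalized. Per the labels' protocols, Trizol was used to take RNA and a TruSeq RNA kit to build libraries. TopHat2 2.0.13, HTSeq 0.7.2 and the mm9 build are named, per the submitters' processing notes. Neither the annotation nor the strand setting is given in the sources used here. Each table ends with 5 lines that name no gene, holding 57.3% to 61.3% of all records, which were left out.

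All genes were fitted with edgeR 4.0.16 in R 4.3.3 (quasi-likelihood test, TMM, group as the only term, prior count 2, minimum count 10 and total 15). Calls had a Benjamini-Hochberg adjusted p below 0.05 over all tested genes. The procedure was tested on simulated data with modest changes in well-counted genes. That test does not bear on the large changes of Rsad2 and Cmpk2, which have few untreated reads. Standard errors were taken from the log2 fold change and F. Samples were grouped by their labels, with 2 libraries each. The exact intervals of count ratios and the floor of 3 counts cover counting error only. The edgeR intervals use the spread between replicates, but they are centred on fold changes that depend on the prior count. That of Rsad2, 11.38 to 12.69, leaves out its value of 13.08 with a prior count of 0.5. With so few untreated reads, the edgeR intervals and standard errors of Rsad2 and Cmpk2 may be too narrow. Replicates differed beyond sampling noise (chi-square per gene 34.6 and 12.1). The alternatives were 3 other scalings, 2 filters, DESeq2 1.42.0, limma-voom (limma 3.58.1), a replicate block, a fit without 3 abundant genes, a prior count of 0.5 and the removal of each library in turn, 14 in all. Members and lists were chosen with earlier results of these data known. Named by rule were the members, called or lowest-p genes of each list, up to 4 neighbours a side and the 4 closest patterns. Ciao1, the Rrm genes, Pnp2, Adk, Paics, Dpyd, Dpys, Upb1, genes named for passing in an alternative, those first or closest in an alternative and the cell type markers were named after their values were seen.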

Additional observations from a re-analysis of the deposited data

How the results depend on the processing

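Rsad2, Cmpk2, Samhd1, Pnp and Xdh were called higher in the main analysis and in each of 14 alternatives. The number of members called higher was 3 or 4 throughout, the fourth being Upp1. Members called lower numbered 0, and 0 to 1 with a library left out, the 1 being Ctps2. Over all genes 574 were higher and 60 lower. The higher count was 863 without a count filter and ran from 470 to 1885 with a library left out. The lower count was 350 with total library size, 128 with upper quartile scaling, 381 without a count filter, 103 by DESeq2, 155 with the replicate block and 24 to 1728 with a library left out. Of the 101 list genes, 2 to 14 were higher and 0 to 15 lower with a library left out, the highest counts being without untreated replicate 2. Lower list genes, 0 in the main analysis, numbered 1 with total library size, 1 with upper quartile scaling, 2 without a count filter, 1 by DESeq2 and 1 with the replicate block. Signs turned for Nt5c3 with total library size (-0.068) and without IFN-beta replicate 2 (-0.0297, with 0.175 as the other end of its range), for Dctd with total library size (-0.037), for Ctps2 with a library left out (-0.52 to 0.02) and for Rnf144a likewise (-0.20 to 0.17). The cause was not tested. Total library size moved the median of all genes from -0.02 to -0.16.

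Over all tested genes, replicate differences were not correlated between the groups (r = -0.03). That value does not show whether some genes share a difference. Lyz2 was higher in replicate 1 of both groups (8.52 and 2.54 CPM untreated, 3.81 and 1.36 CPM treated). Cd14 was lower in replicate 1 of both (7.48 and 8.68 CPM untreated, 7.51 and 8.97 CPM treated). The main fit does not pair libraries by number, and whether the numbers pair them is not known. With the replicate block Upp1 (0.88, adjusted p = 0.00467), Nt5dc3 (0.76, 0.00584) and Nt5e (-1.09, 0.0368) passed. Fits on 3 libraries have a lone library in 1 group, assumed to vary like the other group, and their calls are uncertain. Depth limits Rsad2 and Cmpk2 in untreated cells, where folds rest on 2 and 19 reads.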
